A study of Mus musculus with 23 samples.

Results

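Transcripts of 43 cell cycle and DNA replication genes were followed in hearts of FVB mice, in tissue of the left ventricle, which pumps blood to the body. The genes were taken by symbol from a named list and read by gene ID in the deposited table of counts, and all 43 were found among its 49315 genes. All 43 also passed the filter on low counts that left 15500 genes for testing. By role, 10 encode mitotic kinases and cyclins, 11 spindle motors, spindle assembly or cytokinesis proteins, and 8 chromosome structure or kinetochore proteins, Ki-67 among them. Another 3 were grouped with the anaphase-promoting complex (APC): the genes of its activator, Cdc20, and its partner, Ube2c, and also Cdca3. Of the rest, 7 encode the replication helicase and its sliding clamp, and 4 enzymes of deoxynucleotide synthesis. The first 4 roles are called the mitosis and cytokinesis genes below (32 genes), and the other two the replication and nucleotide genes (11 genes).

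The 23 libraries fall into 6 groups by what the mice breathed and by their age when exposure began, and every group was exposed or kept in air for 3 months, 4 hours a day on 5 days of each week. At a starting age of 3 weeks there were 4 libraries of filtered air, 3 of aerosol of the e-cigarette vehicle and 4 of aerosol of the vehicle with nicotine (called nicotine below). At a starting age of 3 months there were 4 libraries of each. All mice were of the FVB strain, ventricles were frozen in liquid nitrogen, and no allele or other agent is named. Sex, cage and batch are not given in the labels. Whether each library is a different animal is not stated, so p-values reflect only how much these samples vary, possibly for technical reasons. Libraries keep the numbers of their labels. Where a group's values are listed they run in that order: 1, 2, 4 and 5 for air at both ages, 1, 2 and 4 for 3-week vehicle, 2, 3, 5 and 6 for 3-week nicotine, and 1 to 4 for 3-month vehicle and nicotine.

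Cells that prepare to divide first copy their DNA in S phase, and then separate the copies in mitosis. The MCM helicase unwinds DNA at replication origins, PCNA is the clamp that holds polymerases on DNA, and ribonucleotide reductase, thymidylate synthase and thymidine kinase supply deoxynucleotides. Entry into mitosis is driven by the kinase CDK1 with cyclins A and B, and exit by the APC, which marks cyclin B for destruction. Cardiomyocytes of the mouse largely stop dividing soon after birth, while endothelial cells, fibroblasts and blood cells in the same tissue keep the ability to divide. PCNA and some MCM proteins are also present in cells that do not divide, whereas transcripts of most mitotic genes are made mainly from late S phase to mitosis.

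Library totals ran from 12297955 to 17821550 counts, and the 43 genes together took 1806 to 4515 of them in a library. Markers of ventricular cardiomyocytes (10 of 10 measured) summed to 80208 to 104043 counts scaled to library size (CPM) in a library. Among the 3-week air libraries, numbers 1 and 5 had been set apart earlier by higher inflammatory transcripts. They are also the air libraries of that age with the lowest levels of the mitosis and cytokinesis genes, so the counts of called genes that use them are also given without them. The 3-week vehicle libraries 1 and 2 had the higher shares of counts from noncoding genes in that group (2.61% and 2.24%, against 1.47% in library 4), and counts that rest on vehicle are also given without those libraries. The noncoding share was higher still in 3-week nicotine library 3 (3.18%). That library was left out below only in turn with the other single libraries. Whether its noncoding share played a part in the nicotine results was not tested. In a bulk sample, fewer dividing cells and less transcript per cell cannot be told apart.

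Levels are CPM with library sizes scaled by TMM (trimmed mean of M values), and levels of different genes are compared per kilobase (kb) of exon. Averaged over the 23 libraries, Pcna was highest at 15.6 CPM per kb, and the helicase genes Mcm7, Mcm4 and Mcm3 stood at 2.76, 2.67 and 2.35. The order of these helicase genes changed between groups, with Mcm4 above Mcm7 in all 3 groups of the 3-month start. Rrm1, which encodes the large subunit of ribonucleotide reductase, stood at 1.45 CPM per kb. The lowest means were those of mitotic genes, with Ncapg, a condensin subunit, at 0.081 CPM per kb and the spindle gene Hmmr and the checkpoint kinase gene Bub1 at 0.0855 and 0.0872. Their order also differed between groups. The counts behind these levels were small for many mitotic genes, with 0 to 21 counts in a library for Bub1 and 0 to 22 for Hmmr, against 293 to 715 for Pcna.

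The gene of the mitotic kinase itself, Cdk1, was at 1.73, 2.89, 3.05 and 0.47 CPM in 3-week air, 2.5, 1.87 and 1.57 in vehicle, and 1.37, 1.56, 1.16 and 1.58 in nicotine. At the 3-month start Cdk1 was at 0.892, 0.718, 0.569 and 0.871 CPM in air, 0.648, 1.23, 1.37 and 0.501 in vehicle, and 0.31, 0.785, 0.553 and 0.856 in nicotine. With the exception of 3-week air library 5, no 3-week library lay below 1.16 CPM, and all 3-month air and nicotine libraries lay below that value. These values rest on 4 to 55 counts a library. Ccna2, which encodes cyclin A2, read 1.54, 4.3, 2.78 and 0.738 CPM in 3-week air, 2.87, 2.77 and 1.76 in vehicle and 1.17, 1.4, 0.851 and 1.82 in nicotine. In the 3-month groups Ccna2 read 0.892, 0.658, 1.07 and 1.12 CPM in air, 1.36, 1.6, 1.81 and 0.689 in vehicle, and 1.08, 1.28, 1.52 and 0.778 in nicotine. Nicotine and air overlapped at both starting ages, and air library 5 was again the lowest of the 3-week libraries.

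Of the spindle genes, the cytokinesis kinesin gene Kif23 had 2.1, 3.93, 3.33 and 0.738 CPM in 3-week air, 3.53, 4.65 and 1.95 in vehicle and 2.68, 3.04, 1.93 and 2.84 in nicotine. In the 3-month libraries Kif23 had 1.65, 0.897, 0.632 and 1.43 CPM in air, 2.06, 1.1, 1.81 and 1.94 in vehicle and 1.7, 1.28, 1.66 and 1.95 in nicotine. All 3-month air libraries were below 10 of the 11 3-week libraries, the exception being air library 5. Kif20a, another kinesin gene of late mitosis, differed less: 2.34, 3.51, 3.68 and 1.88 CPM in 3-week air, 2.5, 2.36 and 2.2 in vehicle and 2.02, 2.3, 1.7 and 2.45 in nicotine. Its 3-month values were 2.47, 2.33, 2.15 and 2.12 CPM in air, 1.83, 1.6, 1.81 and 1.25 in vehicle and 2.01, 1.78, 2.63 and 2.49 in nicotine, so that the ages overlapped in air and in nicotine, while vehicle at 3 months lay below vehicle at 3 weeks. Nusap1 and Tpx2, which encode microtubule-binding proteins of the spindle, are shown because they had the smallest p of the 43 genes in 3-month against 3-week air, and were chosen after their values were seen. Nusap1 stood at 1.36, 3.41, 1.8 and 0.805 CPM in 3-week air, 2.65, 2.43 and 2.01 in vehicle, and 2.48, 1.97, 1.47 and 1.42 in nicotine. At 3 months Nusap1 stood at 0.48, 0.239, 0.758 and 0.436 CPM in air, 0.412, 0.982, 1.19 and 1.19 in vehicle, and 0.62, 0.856, 0.899 and 0.467 in nicotine. Within each treatment no 3-month library reached the lowest 3-week library. Tpx2 had 1.48, 3.93, 3.68 and 1.07 CPM in 3-week air, 5.14, 3.75 and 2.08 in vehicle and 2.22, 1.81, 1.01 and 1.26 in nicotine. In the 3-month groups Tpx2 had 0.755, 0.479, 0.442 and 0.622 CPM in air, 1.53, 1.66, 1.75 and 0.94 in vehicle, and 0.929, 1.21, 2.08 and 0.778 in nicotine, so that the ages did not overlap in air or vehicle and overlapped in nicotine.

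Mki67, which encodes the proliferation marker Ki-67, was at 5.12, 14.2, 12.6 and 2.89 CPM in 3-week air, 20.4, 8.46 and 10.6 in vehicle, and 5.68, 6.25, 1.86 and 5.61 in nicotine. At 3 months Mki67 was at 4.05, 1.79, 3.79 and 2.99 CPM in air, 3.54, 4.24, 5.99 and 2.44 in vehicle and 2.87, 5.28, 4.91 and 4.13 in nicotine. The 3 vehicle libraries of the 3-week start stood above all 3-week nicotine libraries, and nicotine library 5 lay below the lowest air library while the other 3 nicotine libraries lay within the range of air. Cenpf, a large kinetochore protein gene, had 6.48, 12.6, 16.5 and 8.52 CPM in 3-week air, 11.5, 8.95 and 14.8 in vehicle and 6.66, 21.1, 7.89 and 13.5 in nicotine. Its 3-month values of 4.74, 6.4, 5.12 and 8.65 CPM in air, 8.9, 9.88, 8.42 and 7.39 in vehicle and 9.68, 4.21, 8.92 and 5.99 in nicotine overlapped with the 3-week values in every treatment. Of the APC genes, Cdc20, the activator that starts anaphase, had 1.54, 3.25, 3.26 and 0.537 CPM in 3-week air, 5.81, 3.33 and 2.64 in vehicle, and 2.61, 2.55, 2.01 and 2.84 in nicotine. Its 3-month values were 0.961, 1.44, 0.695 and 1.06 CPM in air, 0.589, 1.35, 2.49 and 1.32 in vehicle and 0.929, 1.14, 1.18 and 0.623 in nicotine, below every 3-week library of the same treatment in vehicle and nicotine. Ube2c, the ubiquitin-conjugating partner of the APC, had 1.79, 1.63, 2.78 and 1.27 CPM in 3-week air, 3.31, 1.66 and 1.38 in vehicle and 1.96, 1.65, 0.232 and 1.58 in nicotine. At 3 months Ube2c had 1.58, 0.957, 1.33 and 0.933 CPM in air, 2, 1.9, 1.81 and 1.19 in vehicle and 1.86, 0.499, 1.45 and 0.934 in nicotine, and the ages overlapped in each treatment.

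Replication and nucleotide genes came next. Mcm7, a subunit of the helicase, was at 9.68, 14.9, 20.1 and 7.98 CPM in 3-week air, 22.2, 16.4 and 13.5 in vehicle and 18.3, 16.1, 13.8 and 12.4 in nicotine. In the 3-month groups Mcm7 was at 9.74, 8.14, 11.9 and 10.1 CPM in air, 9.25, 9.27, 10.2 and 9.77 in vehicle and 9.06, 9.28, 10.2 and 9.03 in nicotine. The ages overlapped in air and were apart in vehicle and nicotine. Pcna stood at 41.6, 37.3, 38.4 and 40.0 CPM in 3-week air, 21.5, 32.5 and 35.2 in vehicle and 33.7, 35.9, 32.03 and 34.3 in nicotine. At 3 months Pcna stood at 35.7, 39.1, 42.2 and 36.3 CPM in air, 42.1, 41.9, 40.5 and 35.2 in vehicle and 45.3, 40.1, 35.1 and 43.3 in nicotine. Every 3-week vehicle and nicotine library was below the lowest 3-week air library. Rrm1 was nearly level, with 16.0, 16.4, 16.8 and 14.7 CPM in 3-week air, 13.5, 17.0 and 15.8 in vehicle and 14.3, 17.1, 13.2 and 16.7 in nicotine. Its 3-month values were 14.3, 15.8, 17.7 and 17.0 CPM in air, 17.3, 15.6, 17.1 and 14.5 in vehicle and 16.7, 16.1, 15.4 and 17.5 in nicotine, all within the span of the 3-week libraries except air library 4, vehicle library 1 and nicotine library 4. Tk1, thymidine kinase of the salvage pathway, had 5.06, 6.72, 6.59 and 6.24 CPM in 3-week air, 6.39, 7.35 and 6.17 in vehicle and 6.92, 3.95, 4.87 and 5.05 in nicotine. At 3 months Tk1 had 3.23, 4.91, 4.8 and 5.04 CPM in air, 3.95, 4.24, 6.55 and 5.08 in vehicle and 6.97, 4.71, 4.64 and 3.89 in nicotine, which lay below the 3-week values in air and overlapped elsewhere.

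**Figure D1:**
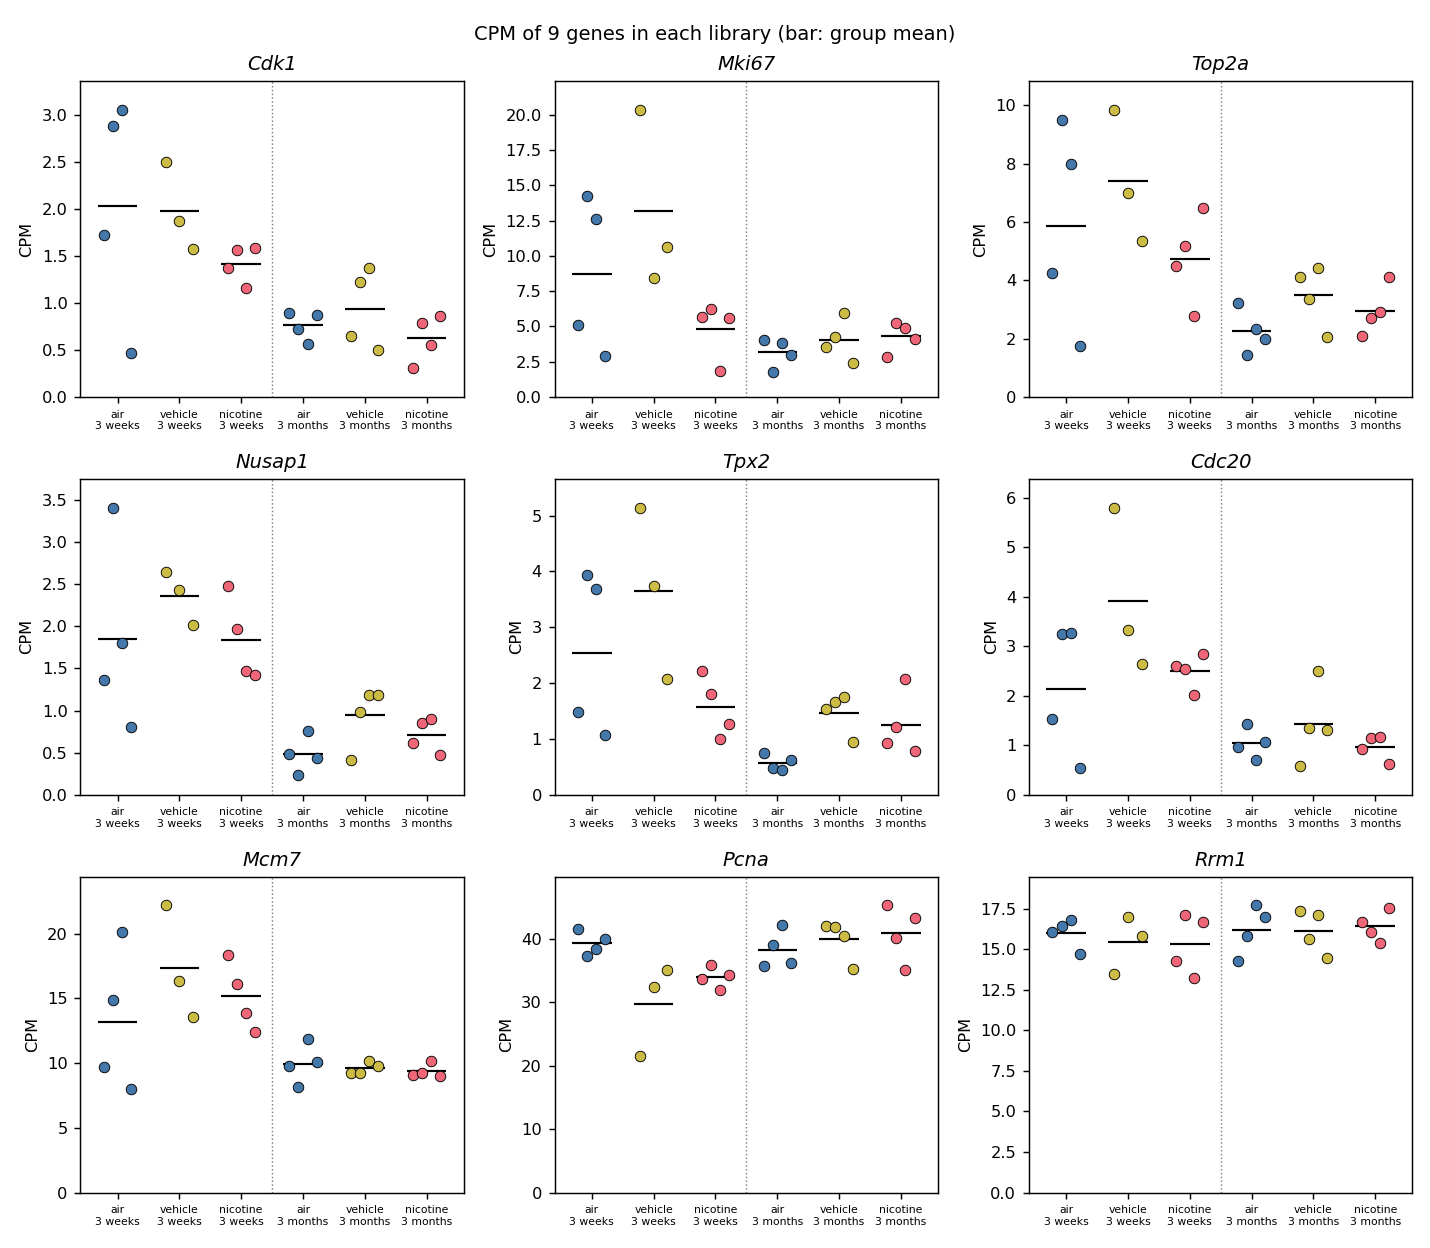
CPM (vertical axis, from 0) of 9 genes in each of the 23 libraries, by group (horizontal axis: treatment and starting age); points are libraries and bars group means. Rrm1 stays between 13.2 and 17.7 CPM in all libraries, while Nusap1 is lower in every 3-month library than in any 3-week library of the same treatment.

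As a description of each library, log2 CPM was averaged over the 32 mitosis and cytokinesis genes. This mean was 0.28, 1.46, 1.37 and -0.22 in 3-week air, 1.49, 1.21 and 0.79 in vehicle, and 0.64, 0.69, 0.01 and 0.54 in nicotine. In the 3-month groups it was -0.29, -0.40, -0.11 and -0.19 in air, -0.02, 0.27, 0.59 and -0.11 in vehicle and -0.22, 0.02, 0.27 and 0.01 in nicotine. The highest libraries were thus 3-week vehicle 1 and 2 and 3-week air 2 and 4. The ages overlapped, since 3-week air 1 and 5 and 3-week nicotine 5 and 6 stood within the range of the 3-month libraries (-0.40 to 0.59). Of the 43 genes, 17 had their highest CPM in 3-week vehicle library 1 and 13 in 3-week air library 4, while 12 had their lowest in 3-month air library 2. For the 11 replication and nucleotide genes the mean lay between 2.56 and 3.40 in 3-week air, 3.01 and 3.28 in vehicle and 2.77 and 3.07 in nicotine. At 3 months it lay between 2.46 and 2.84 in air, 2.77 and 2.90 in vehicle and 2.65 and 2.78 in nicotine.

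**Figure D2:**
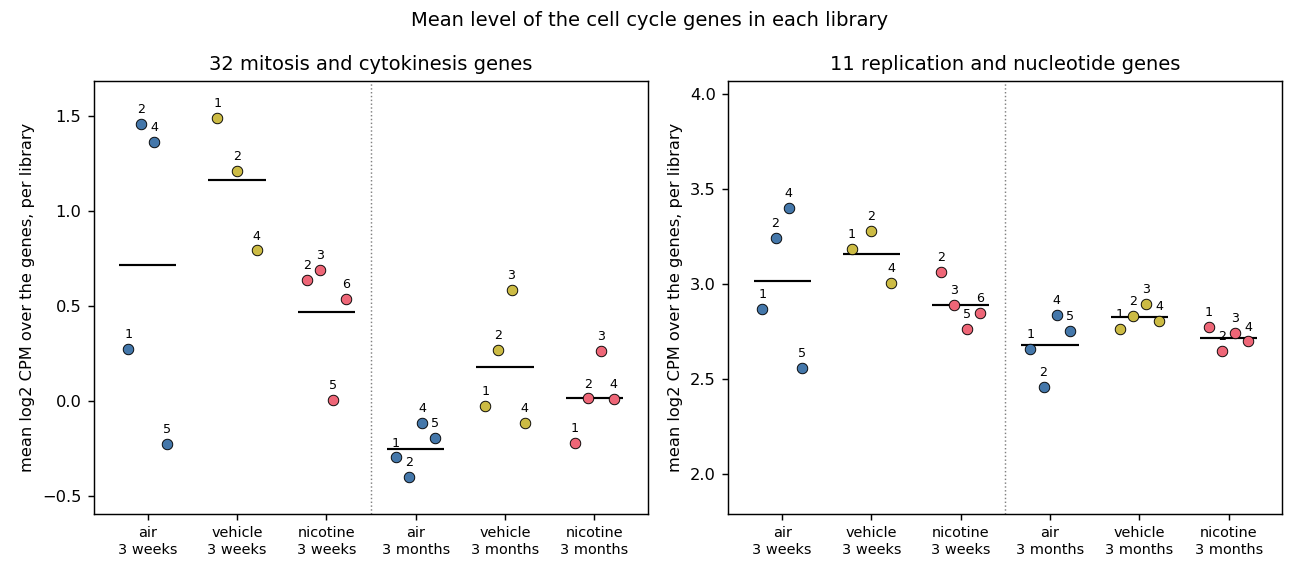
Mean log2 CPM per library (vertical axis) over the 32 mitosis and cytokinesis genes (left) and the 11 replication and nucleotide genes (right), by group; both panels span the same number of log2 units, numbers beside points are library numbers, and bars are group means. On the left 3-week air splits into libraries 2 and 4 (1.46 and 1.37) and libraries 1 and 5 (0.28 and -0.22).

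Starting age was compared first. Every group was kept for 3 months, so mice of the later start were also older when exposure ended. Age at the start, age at the end and any cohort tied to them cannot be told apart. The planned contrast was 3-month against 3-week air. Contrasts of the ages within vehicle, within nicotine, and of their mean with air were added after the values were seen, and all come from edgeR's quasi-likelihood fit of the 6 groups with Benjamini-Hochberg adjustment over the 15500 genes. In the mean of the 3 treatments, 33 of the 43 genes were lower at the 3-month start and 1 was higher, with a median log2 fold change of -0.88 against -0.02 over all genes tested. Among the lower genes, Bub1, Melk, Ccnb1 and Hmmr had at most 6, 7, 9 and 9 counts in any 3-month library. They passed the filter on low counts only through 3-week libraries, where they are higher, so their lower calls add no support of their own. Over all genes, 17.9% were called lower and 14.3% higher in this contrast. The mitosis and cytokinesis genes made up most of the calls, with 28 of 32 lower and a median of -1.02, while 5 of 11 replication and nucleotide genes were lower with a median of -0.31.

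Among kinases and cyclins 9 of 10 were lower in that mean. The 3 with the smallest p were Cdk1 (log2 fold change -1.22 ± 0.25 SE, adjusted p = 0.00154), Aurkb, the kinase of the chromosomal passenger complex (-1.59 ± 0.35, 0.00249), and Bub1b, a component of the spindle checkpoint (-1.07 ± 0.24, 0.00337). Aurka, the spindle pole kinase, did not pass (-0.52 ± 0.28, adjusted p = 0.140). Of the spindle and cytokinesis genes 9 of 11 were lower, led by Nusap1 (-1.54 ± 0.23, adjusted p = 0.00016, or 2.92-fold lower) and Tpx2 (-1.26 ± 0.24, 0.00101). Anln, an actin-binding protein of the cleavage furrow (-0.99 ± 0.21, 0.00233), and Racgap1, a partner of Kif23 in the central spindle (-0.86 ± 0.19, 0.00318), were also lower. Kif20a and Ect2, another cytokinesis gene, did not pass (adjusted p = 0.1003 and 0.268). All 8 chromosome and kinetochore genes were lower, with folds from 1.27 for the condensin gene Smc2 to 2.39 for Birc5, which encodes survivin. Birc5 stood at -1.25 ± 0.28 log2 (adjusted p = 0.00309), and Top2a, the topoisomerase that untangles sister chromatids, at -1.05 ± 0.23 (0.00246). Of the genes grouped with the APC, Cdc20 (-1.28 ± 0.25, adjusted p = 0.00124) and Cdca3 were lower, and Ube2c was not called (-0.37 ± 0.25, 0.248).

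The replication genes divided. Mcm7 (-0.65 ± 0.13, adjusted p = 0.001), Mcm6 (-0.66 ± 0.15, 0.00293) and Mcm5 were lower, each about 1.5-fold, whereas Mcm2, Mcm3 and Mcm4 lay at 0.01, -0.14 and -0.07 log2 with adjusted p of 0.257 to 0.937. For these 3 the 95% intervals of the log2 fold change ran from -0.21 to 0.23, from -0.35 to 0.06 and from -0.25 to 0.11. Pcna was the only one of the 43 genes called higher in the mean of the treatments (0.22 ± 0.07, adjusted p = 0.0218), while in air alone it was at -0.04 ± 0.12 (adjusted p = 0.940). Of the nucleotide enzymes, Rrm2, the small subunit of ribonucleotide reductase, and Tyms, thymidylate synthase, were lower. Rrm1, the large subunit, was at 0.06 with an interval from -0.07 to 0.19, and Tk1 did not pass (-0.31 ± 0.12, adjusted p = 0.0527). Whether mitotic and replication genes differ in their response was not tested.

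Within single treatments fewer genes passed. In vehicle, 8 of the 43 genes were lower and 1 higher, while 7.38% of all genes were called lower and 5.09% higher. The genes lower in vehicle were Mcm7 (-0.85 ± 0.22, adjusted p = 0.0214), Mki67 (-1.69 ± 0.45, 0.0216), Cdc20 (-1.44 ± 0.43, 0.0359) and Nusap1 (-1.32 ± 0.40, 0.0365). The others were Birc5 (-1.55 ± 0.47, 0.0367), Tpx2 (-1.30 ± 0.40, 0.0408), Tyms (-1.13 ± 0.36, 0.0437) and Plk1, a mitotic kinase (-1.16 ± 0.37, 0.0457). Pcna was the one called higher (0.42 ± 0.13, adjusted p = 0.0348). In nicotine 2 of 43 were lower, Nusap1 (-1.36 ± 0.41, adjusted p = 0.0385) and Mcm7 (-0.69 ± 0.21, 0.0437), and 0 were higher, against 4.49% of all genes lower and 5.03% higher. The lower count in nicotine is thus near the share of all genes and does not set the 43 genes apart. Cdc20 had the next smallest p in nicotine (-1.36 ± 0.45, adjusted p = 0.0586). By DESeq2, 8 genes were lower and 1 higher in vehicle, and 3 lower and 0 higher in nicotine. The counts of called genes turned on single libraries. Shares of all genes by DESeq2 or with single libraries left out are not given for vehicle or nicotine. Such counts therefore show how far the calls moved and do not set the 43 genes apart. In vehicle 21 of the 43 genes were called without 3-week library 4, 0 without 3-week library 1, 1 without 3-week library 2, 0 without 3-month library 1 or 2, 5 without 3-month library 3 and 4 without 3-month library 4. In nicotine 0 were called without 3-week library 2, 3 or 5 or 3-month library 1, 2 or 4, and 1 without 3-month library 3.

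In air, edgeR called 0 of the 43 genes, although 31 had an unadjusted p under 0.05 and 42 had a negative log2 fold change (median -1.14, against -0.01 over all genes). Over all genes 0.00645% were called in air. Shares of all genes at an unadjusted p under 0.05 are not given here or below, so counts at that threshold do not set the listed genes apart. The 3 smallest p belonged to Tpx2 (-2.14 ± 0.43, adjusted p = 0.133), Nusap1 (-1.95 ± 0.41, 0.133) and Prc1, a bundler of spindle microtubules (-1.35 ± 0.32, 0.173). DESeq2 called these same 3 genes lower, among 0.139% of all genes. The air result turned on 3-week air libraries 1 and 5. Without both of them 31 of the 43 genes were lower, with a median of -1.67, against 3.63% of all genes. Without library 1 alone 4 were lower (0.291% of all genes), and without library 5 alone 3 (0.0388%). Since these 2 libraries are also low in the 43 genes, the value without them describes the other libraries and is no independent test. In the mean of the treatments, 36 genes were lower and 1 higher without them, against 21.2% of all genes called lower.

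The mean over treatments rested in part on 3-week vehicle libraries 1 and 2. Without both, 13 of the 43 genes were lower and 0 higher, against 4.67% of all genes lower; the single vehicle library left was taken to vary as much as libraries elsewhere. Those 13 genes were Cdk1, Aurkb, Bub1b, Nusap1, Tpx2, Anln, Racgap1, Mki67, Top2a, Cenpf, Cdc20, Mcm6 and Mcm7. Leaving out any single library left 28 to 35 of the 43 genes called in either direction. Shares of all genes with single libraries left out are not given for this mean, so that range shows only how far the calls moved.

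Markers of other cells were counted in the same mean, in which 17.9% of all genes were lower and 14.3% higher. Neutrophil markers (5 of 7 measured) were all 5 called higher in the 3-month mean, with a median log2 fold change of 3.10. Their summed level ran from 0.839 to 11.5 CPM in 3-week air, 0.755 to 2.06 in vehicle and 1.01 to 1.57 in nicotine, and from 3.98 to 13.9, 4.91 to 15.9 and 7.06 to 18.5 CPM in the same order at 3 months. Ly6g and Mpo, defining genes of that list, had at most 1 count in any library. In 3-week air the neutrophil mean log2 CPM was 0.91 and 0.71 in libraries 1 and 5 and -2.03 and -1.81 in libraries 2 and 4, so within that group it was high where the mitotic genes were low. By group this neutrophil mean was -0.56, -1.79 and -1.82 in 3-week air, vehicle and nicotine, and 0.41, 0.60 and 0.99 at 3 months. For the mitosis and cytokinesis genes the group means were 0.72, 1.17 and 0.47, and -0.25, 0.18 and 0.02 in the same order. Erythroid markers (6 of 8 measured) had 5 called lower, with summed levels of 468 to 2366 CPM over the 3-week libraries and 305 to 896 over the 3-month libraries. Macrophage markers had 4 of 12 lower (median -0.12), a share above that of all genes, though of few genes. Endothelial markers had 1 of 12 lower and 1 higher (median 0.03) and fibroblast markers 2 of 10 lower (median -0.08), near or below the shares of all genes. B and plasma cell markers had 2 of 5 higher and 2 lower, mesothelial markers 1 of 2 in each direction, and ventricular cardiomyocyte markers 2 of 10 in each direction. Without 3-week air libraries 1 and 5 the neutrophil markers were again 5 of 5 higher and the erythroid markers 4 of 6 lower, and without 3-week vehicle libraries 1 and 2 these counts were 5 and 0. The part of these cells in the results for the cell cycle genes was not tested.

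**Figure D3:**
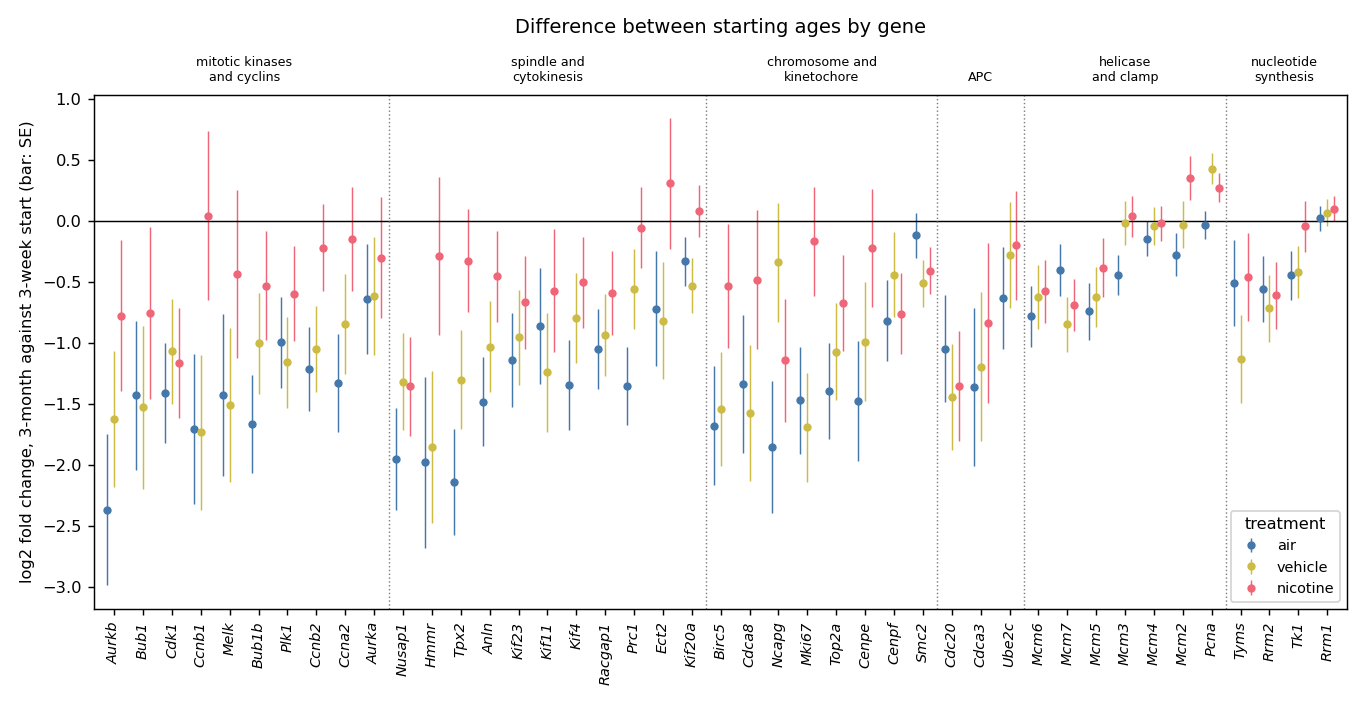
Log2 fold change of the 3-month against the 3-week start (vertical axis, bars are SE) for each of the 43 genes (horizontal axis, grouped by role) in air, vehicle and nicotine. All 32 mitosis and cytokinesis genes are below 0 in air and in vehicle, and Rrm1 and Mcm4 lie close to 0 in all 3 treatments.

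Promoter sequences are shown for 4 genes that differ in how they followed starting age. As background, promoters of many mitotic genes carry CCAAT boxes, bound by NF-Y, and the element TTTGAA, bound by the MuvB complex, while many replication genes carry sites for E2F factors. The RefSeq promoter table (build GRCm38.p6, 300 bases from 250 before to 50 after the start) held 38 of the 43 genes. Searched on both strands and with overlaps allowed, CCAAT was found in 84.2% of these 38 windows and in 37.9% of 27025 promoters in the table. TTTGAA was found in 60.5% of the 38 and in 18.1% of the table, and in the 250 bases before the start alone in 28.9% and 16.3%. By role, TTTGAA was in 22 of 28 mitosis and cytokinesis promoters, 10 of them before the start, and in 1 of 10 replication and nucleotide promoters. An E2F-type word (TTTCCCGC, TTTGGCGC, TTTCGCGC or TTTGCCGC) was in 4 of the 10 and in 2 of the 28, and in 2.32% of the table. Among promoters of tested genes alone, the shares were 38.1% for CCAAT, 11.7% for TTTGAA and 3.96% for the E2F-type words. A match is a run of letters and not a shown binding site. The 250 bases before the start are printed for the 2 genes with CCAAT and TTTGAA there and the smallest p for starting age (Cdc20 and Cdk1), for the gene with an E2F-type word and the smallest p among the rest (Mcm7), and for Pcna, the gene called higher in that mean. Capitals mark matches to these words on either strand.
Cdc20, GRCm38.p6 chr4:118437344-118437593, minus strand: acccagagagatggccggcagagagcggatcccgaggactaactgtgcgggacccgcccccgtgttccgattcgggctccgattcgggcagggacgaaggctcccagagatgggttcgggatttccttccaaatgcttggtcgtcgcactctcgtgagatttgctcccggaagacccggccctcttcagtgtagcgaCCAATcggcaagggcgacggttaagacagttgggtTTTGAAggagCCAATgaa
Cdk1, GRCm38.p6 chr10:69352913-69353162, minus strand: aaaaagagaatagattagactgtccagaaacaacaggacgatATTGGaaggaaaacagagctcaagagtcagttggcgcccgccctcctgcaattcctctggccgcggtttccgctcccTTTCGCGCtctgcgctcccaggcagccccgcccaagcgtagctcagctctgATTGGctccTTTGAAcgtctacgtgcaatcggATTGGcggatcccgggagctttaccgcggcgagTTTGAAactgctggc
Mcm7, GRCm38.p6 chr5:138171884-138172133, minus strand: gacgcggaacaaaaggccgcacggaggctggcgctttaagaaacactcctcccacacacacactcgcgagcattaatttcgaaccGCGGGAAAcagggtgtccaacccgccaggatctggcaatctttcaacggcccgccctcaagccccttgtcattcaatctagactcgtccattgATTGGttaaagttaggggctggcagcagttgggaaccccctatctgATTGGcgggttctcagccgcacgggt
Pcna, GRCm38.p6 chr2:132253181-132253430, minus strand: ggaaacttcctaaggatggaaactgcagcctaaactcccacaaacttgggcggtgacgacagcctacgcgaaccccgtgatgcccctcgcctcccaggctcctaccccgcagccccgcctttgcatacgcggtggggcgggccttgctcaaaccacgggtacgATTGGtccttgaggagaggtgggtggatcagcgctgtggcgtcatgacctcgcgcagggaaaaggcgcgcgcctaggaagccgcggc
Before the start, Cdc20 had 2 CCAAT matches and 1 TTTGAA match, Cdk1 had 3 CCAAT, 2 TTTGAA and 1 E2F-type match, Mcm7 had 2 CCAAT and 1 E2F-type match, and Pcna had 1 CCAAT match. Cdc20 and Cdk1 were about 2.4-fold and 2.3-fold lower at the 3-month start in the mean of the treatments, and Mcm7 1.57-fold lower. Nusap1, whose fold was the largest of the spindle genes, held none of these words in its window.

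In the 3-week mice, nicotine against air gave 0 of 43 calls by edgeR and 0 by DESeq2, with 7 genes at an unadjusted p under 0.05, while 0.813% of all genes were called. The log2 fold change was negative for 36 of the 43 genes, with a median of -0.35 against 0.02 over all genes. The smallest p belonged to Mcm3 (-0.45 ± 0.17, adjusted p = 0.235), Bub1b (-1.05 ± 0.39, 0.235) and Prc1 (-0.83 ± 0.31, 0.239). Nicotine and air libraries overlapped for all 3. Mcm3 encodes another helicase subunit, and the 95% interval of its log2 fold change ran from -0.80 to -0.10. Without air libraries 1 and 5 the median was -0.86, all 43 genes were negative and Bub1b passed (-1.70 ± 0.30, adjusted p = 0.0495), against 0.0443% of all genes called lower. Leaving out single libraries moved the median between -0.59 and -0.15.

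Vehicle against air at the 3-week start gave 1 lower call of 43 and 0 higher calls, among 16.2% of all genes called and 6.92% called lower. The gene was Pcna (-0.40 ± 0.13, adjusted p = 0.0392), whose 3 vehicle libraries at 21.5, 32.5 and 35.2 CPM all lay below the 4 air libraries at 37.3 to 41.6. The change was -0.23 without vehicle library 1, the lowest of the 3, and was then not called. Nor was it called without vehicle library 2, air library 1 or air library 5, or with the 2 groups alone in the fit. Mitosis and cytokinesis genes lay the other way, with 26 of 32 positive and a median of 0.33, and none of them passed (1 at an unadjusted p under 0.05, and 0 by DESeq2). Next to Pcna the smallest p were those of Smc2 (0.51 ± 0.19, adjusted p = 0.0686) and Tyms (0.83 ± 0.35, 0.0969), which was at 1.85, 4.09, 3.47 and 1.21 CPM in air and 7.64, 4.44 and 2.27 in vehicle. Vehicle library 1 was the highest for Tyms, and 2 of 4 air libraries lay within the vehicle range. Without air libraries 1 and 5 the median of the 43 genes was -0.14 in place of 0.25, and without vehicle libraries 1 and 2 it was -0.07, so its sign rests on those libraries.

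Nicotine against vehicle at the 3-week start gave 0 calls by edgeR and by DESeq2, and 0% of all genes were called by edgeR. Here 40 of 43 genes were negative, and the median was -0.63 against -0.02 over all genes. An unadjusted p under 0.05 was found for 13 of the 43, with no share of all genes at that threshold to set beside it. The smallest p were those of Mki67 (-1.44 ± 0.45, adjusted p = 0.152), Tpx2 (-1.20 ± 0.41, 0.166) and Birc5 (-1.29 ± 0.47, 0.176). Birc5 had 3.53, 1.8 and 0.692 CPM in vehicle and 0.913, 0.74, 1.01 and 0.553 in nicotine, so 1 vehicle library lay inside the nicotine range. Without vehicle library 4, which had the lowest mitotic levels of the 3, 7 of the 43 genes passed and 30.3% of all genes were called. Without vehicle libraries 1 and 2 the median was -0.23 and 0 passed. These 3 comparisons share samples: air and vehicle each enter 2 of them.

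At the 3-month start 0 of the 43 genes were called by edgeR or by DESeq2 in any of the 3 exposure comparisons, as 0% of all genes were called by edgeR in each. Vehicle against air had 39 of 43 genes positive, with a median of 0.41, and 5 of the 43 had an unadjusted p under 0.05. Shares of all genes by sign are not given in the text for any comparison. Medians over all genes are not given in the text for the 3-month start or for the differences of effects below. Such counts and medians therefore describe the 43 genes and do not set them apart. Ncapg (1.65 ± 0.55, adjusted p = 0.295), Tpx2 (1.35 ± 0.45, 0.295) and Kif20a (-0.48 ± 0.21, 0.333) had the smallest p. For Tpx2 all 4 vehicle libraries, at 0.94 to 1.75 CPM, lay above the 4 air libraries at 0.442 to 0.755. Ncapg stood at 0.0686, 0.179, 0.379 and 0.124 CPM in air and 0.471, 0.737, 0.873 and 0.376 in vehicle, which rests on 1 to 14 counts in a library. The common biological coefficient of variation was 0.105 in the 3-month libraries alone, 0.234 in the 3-week libraries alone and 0.179 in all libraries. The fit of all libraries thus took the common spread as larger than that of the 3-month libraries and smaller than that of the 3-week libraries. Fitted with the 3-month libraries alone, 2 genes were called higher, against 7.64% of all genes called higher. These were Tpx2 (adjusted p = 0.0115) and Kif4, a chromosome-bound kinesin gene (0.83 ± 0.27, 0.0407). Nicotine against air had 32 of 43 positive and a median of 0.16, and 1 of the 43 had an unadjusted p under 0.05. Tpx2 was that gene (1.13 ± 0.47, adjusted p = 0.9998), followed by Hmmr (1.37 ± 0.76) and Cenpe, a kinetochore motor gene (0.88 ± 0.52). Nicotine against vehicle had 30 of 43 negative and a median of -0.21, and 1 of the 43 had an unadjusted p under 0.05. Its smallest p were those of Kif20a (0.46 ± 0.21, adjusted p = 0.407), Smc2 (-0.35 ± 0.19, 0.424) and Mcm6 (-0.39 ± 0.26, 0.482).

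**Figure D4:**
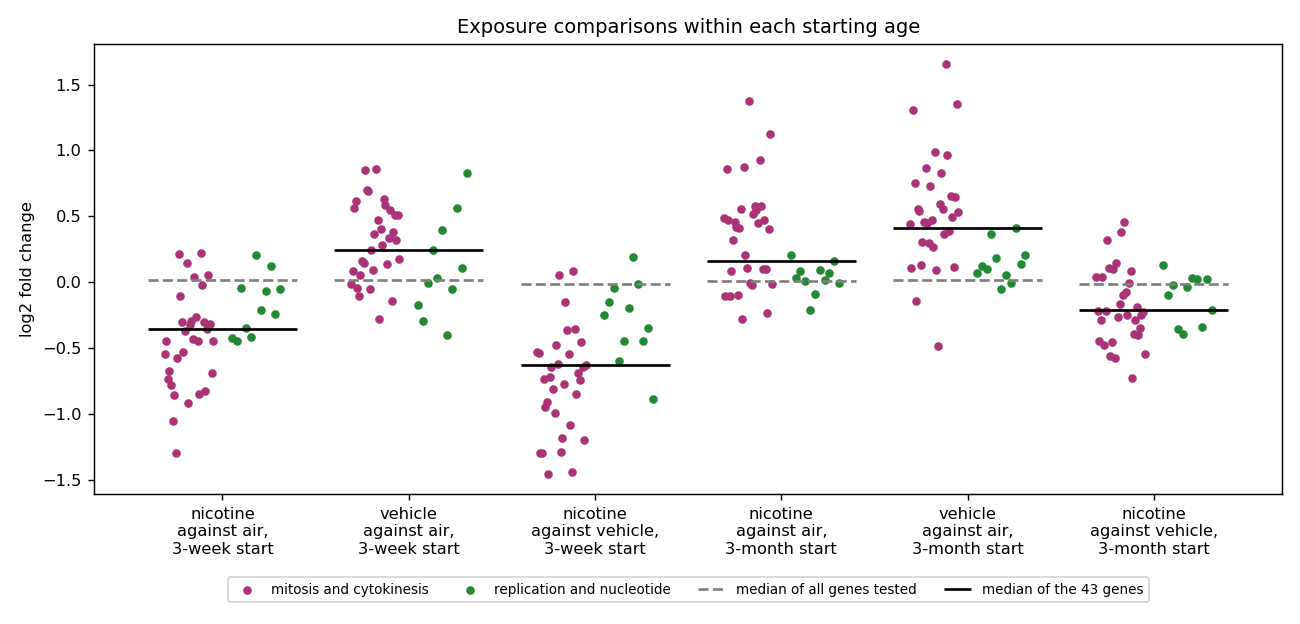
Log2 fold changes (vertical axis) of the 43 genes in 6 exposure comparisons (horizontal axis), as points by role; solid lines are medians of the 43 genes and dashed lines medians of all 15500 genes tested. The medians of the 43 genes run from -0.63 for nicotine against vehicle at 3 weeks to 0.41 for vehicle against air at 3 months.

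The difference of the nicotine effect between the ages (3-week minus 3-month) was negative for 39 of 43 genes, with a median of -0.52 and 4 genes at an unadjusted p under 0.05. By edgeR and by DESeq2 0 genes passed, while 0.135% of all genes were called by edgeR. Tpx2 (-1.82 ± 0.61, adjusted p = 0.232), Prc1 (-1.30 ± 0.46, 0.263) and Mcm2 (-0.63 ± 0.25, 0.345) had the smallest p. This contrast is also the test of whether the ages differed otherwise in air than in nicotine, which was therefore not shown for any of the 43 genes. The difference of the vehicle effect had 29 of 43 negative, a median of -0.14, and 1 gene at an unadjusted p under 0.05. It too gave 0 calls by edgeR and DESeq2 and 0% of all genes called by edgeR. Its median was -0.43 without 3-week vehicle libraries 1 and 2, and -0.67 without air libraries 1 and 5. The smallest p were those of Pcna (-0.46 ± 0.17, adjusted p = 0.306), Ncapg (-1.51 ± 0.73, 0.417) and Prc1 (-0.80 ± 0.46, 0.499).

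Further genes of the cell cycle were counted from lists chosen with these 43, and are read against the 17.9% of all genes lower and 14.3% higher in the 3-month mean. Of 31 measured genes for other kinetochore, spindle and condensin proteins, 22 were lower and 1 higher in the 3-month mean (median -0.93). In vehicle 13 were lower and 1 higher, against 7.38% of all genes lower and 5.09% higher in that contrast. Without 3-week vehicle libraries 1 and 2, 9 of 33 were lower in the mean (4.67% of all genes), and in vehicle 0 were called, as 0% of all genes were. Cep55, a protein of the last step of cytokinesis (-1.69 ± 0.30, adjusted p = 0.000594), Ckap2 (-1.85 ± 0.35, 0.000891) and Aspm, a spindle pole protein (-1.22 ± 0.24, 0.00116), were lower in the mean. Spc25, an outer kinetochore subunit, was the 1 gene higher (1.12 ± 0.22, adjusted p = 0.00109). Of 42 genes of replication origin licensing and the fork, 17 were lower and 0 higher in the mean (median -0.19). They were led by Timeless, a fork protection factor (-0.91 ± 0.14, adjusted p = 0.000191), Gins3 (-1.13 ± 0.20, 0.000435) and Cdc7, the kinase that starts origins (-1.17 ± 0.24, 0.00137). Timeless stood at 23.1 ± 9.54 CPM (SD, n = 4) in 3-week air and 13.01 ± 0.754 (n = 4) in 3-month air. Of 14 measured G1 and S cyclins and their kinases, 6 were lower and 0 higher, among them Cks2 (-1.02 ± 0.23, adjusted p = 0.00295), Ccne2, which encodes cyclin E2 (-0.56 ± 0.13, 0.00441), and Cdk2 (-0.28 ± 0.07, 0.0068). Of 19 transcription factors of the E2F, DREAM and MuvB group, 6 were lower, including E2f1 (-0.82 ± 0.20, adjusted p = 0.00491) and E2f2 (-0.97 ± 0.25, 0.00691). Another 3 of them were higher, including the retinoblastoma gene Rb1 (0.40 ± 0.11, 0.0101). Without 3-week air libraries 1 and 5 the lower calls in the mean were 27 of 33 spindle, 19 of 42 fork, 7 of 14 G1 and S, and 6 of 19 E2F group genes. In that setting 21.2% of all genes were called lower. Without 3-week vehicle libraries 1 and 2, 5 fork genes were lower, Cdc7 no longer among them (adjusted p = 0.0587), and 0 genes of the G1 and S or E2F groups were called.

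The CDK inhibitors and p53 genes (9 measured) had 2 higher and 3 lower in the 3-month mean, counts of so few genes that they can hardly be told from the shares of all genes. Cdkn1a, which encodes the CDK inhibitor p21, was higher (2.31 ± 0.40, adjusted p = 0.000522), as was Btg2, an antiproliferative gene (1.83 ± 0.30, 0.000292). Cdkn1a was at 103, 10.4, 9.09 and 193 CPM in 3-week air, so that libraries 1 and 5 stood far above 2 and 4, and ran from 6.42 to 12.002 in vehicle and from 6.71 to 7.97 in nicotine. At 3 months Cdkn1a ran from 48.0 to 109 CPM in air, 62.0 to 111 in vehicle and 32.3 to 125 in nicotine. It was the only listed cell cycle gene called in nicotine against air at the 3-week start (-3.44 ± 0.71, adjusted p = 0.0319), and it was lower in vehicle against air too (-3.10 ± 0.77, 0.0236). Both calls rest on air libraries 1 and 5. Without them Cdkn1a was at -0.45 ± 0.41 in nicotine and -0.12 ± 0.42 in vehicle against air, with adjusted p of 0.9999 and 0.906. Its 3-month mean was still higher without them (3.32 ± 0.23, adjusted p = 2.84e-09). In the vehicle comparison, in which 9.27% of all genes were higher, 5 of 42 replication origin and fork genes, among them Tipin, a partner of Timeless (0.52 ± 0.14, adjusted p = 0.0269), and 3 of 31 other spindle genes were higher, shares close to that of all genes. The 3 spindle genes were the condensin gene Smc4 (0.92 ± 0.19, adjusted p = 0.0141), Incenp (0.78 ± 0.23, 0.0321) and Kif2c (1.43 ± 0.48, 0.0453). Without air libraries 1 and 5, or without vehicle libraries 1 and 2, 0 genes of these lists and 0% of all genes were called by edgeR. At an unadjusted p under 0.05 there were 3 fork and 2 spindle genes in the first case and 3 and 0 in the second.

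The authors' deposited tables compare nicotine with air at each starting age. In the authors' deposited table for 3 weeks, 38 of the 43 genes are listed, 31 with a negative log2 fold change and 0 with an adjusted p under 0.05, the smallest being 0.279. In the authors' deposited table for 3 months 30 are listed, 10 negative and 0 with an adjusted p under 0.05, the smallest being 0.999. Neither deposited table compares the starting ages.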

How the data were processed

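RNA of 23 left ventricle samples in 6 groups was sequenced. The tools named in the submitters' processing notes are STAR 2.5.2b, Trimmomatic 0.36, Subread 1.5.2 with featureCounts, and DESeq2. The genome build, annotation and strandedness were not given in the sources used here. Counts were deposited by the authors as whole numbers for each gene, not normalized. The authors' deposited comparison tables give log2 fold changes and adjusted p-values and were used only where named. Genes were matched by ID to symbols (48970 of 49315 genes). With edgeR 4.0.16 in R 4.3.3, genes passing filterByExpr (minimum count 10) were scaled by TMM and fitted with 1 coefficient per group (quasi-likelihood, robust, 17 residual degrees of freedom), with Benjamini-Hochberg adjustment of p-values over 15500 genes with a threshold of 0.05. Log2 CPM used a prior count of 2. The fit was tested on simulated data.

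The members and lists were chosen with earlier results of these data known. Named were members past the threshold (up to 12 a contrast), otherwise the 3 with the smallest p, up to 4 genes of a pathway list, and, with all libraries, called members of the planned contrasts and the 2 most abundant of each role. Tpx2 and Nusap1 with all libraries, and the library values of Tyms, Birc5 and Ncapg, were chosen after values were seen. Alternatives were DESeq2 1.42.0, RLE scaling, no filter, a length offset, smaller fits, a replicate block and omitted libraries. Library totals of 12297955 to 17821550 counts limit the precision for genes with few counts. Over 33 pairs of libraries within groups, the lowest chi-square per gene was 4.67, so no library was counted as a repeat of another.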

Additional observations from a re-analysis of the deposited data

Results flagged for a closer look

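Among 75 sets of 4 library values tested for a sample far from the others, 2 held one, and chance alone marks about 1 in 20 such sets. Mki67 stood at 1.86 CPM in 3-week nicotine library 5, while the other 3 libraries of that group lay between 5.61 and 6.25 CPM. Tk1 stood at 3.23 CPM in 3-month air library 1, while the other 3 lay between 4.803 and 5.04 CPM.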

How the results depend on the processing

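The 33 lower and 1 higher calls for the mean age contrast became 13 in all without 3-week vehicle libraries 1 and 2, and 28 to 35 with any single library left out (median -0.93 to -0.76). For air alone, calls were 0 in the reported fit, 3 by DESeq2, 31 without 3-week air libraries 1 and 5 (median -1.67), and 0 to 4 with single libraries left out (median -1.44 to -0.80). For vehicle across ages they were 2 with no filter, 3 with the compared groups only, 0 without 3-week vehicle libraries 1 and 2 (median -0.49), and 0 to 21 with single libraries left out (median -1.09 to -0.74). For nicotine across ages they were 1 with no filter, 5 with the compared groups only and 0 to 2 with single libraries left out (median -0.53 to -0.33). The 3 age contrasts other than air, and the omissions for them and for the other gene lists, were chosen after seeing the data. For nicotine against air at 3 weeks, 1 gene was called without air libraries 1 and 5. For vehicle against air at 3 weeks, 0 were called with no filter, with a replicate block, with libraries of the same starting age or compared groups only, and without either pair of libraries, and 0 to 3 with single libraries left out. Its median was -0.14 without air libraries 1 and 5 and -0.067 without vehicle libraries 1 and 2, and 0.06 to 0.51 with single libraries left out. Without vehicle libraries 1 and 2, Tyms in that comparison was at -0.22, and in nicotine against vehicle Birc5 was at 0.19 and the median at -0.23 (calls 0 to 7 with single libraries left out, the 7 without vehicle library 4). For vehicle against air at 3 months, 2 were called with libraries of the same starting age and 1 with the compared groups only. Without air libraries 1 and 5 the median difference of the nicotine effect was -0.9998 and that of the vehicle effect -0.67. The latter ran from -0.36 to 0.020 with single libraries left out, with 0 to 1 calls. The causes of these shifts were not tested, and shares of all genes are not set beside most of these counts. Deviations of same-numbered libraries from their group means had correlations from -0.37 to 0.28, and 3 of 16 pairs were over 0.1. The 3-week libraries numbered 2 were at 0.09 for air with vehicle, 0.23 for air with nicotine and 0.28 for vehicle with nicotine. The replicate block could not be fitted to age contrasts, since numbers lie within a starting age. With the block, 0 of the 43 genes were called in every exposure comparison and in both differences of effects, and the median was -0.25 for nicotine against air and 0.09 for vehicle against air at 3 weeks. For the named genes, 841 alternative values kept direction and call, 94 lost the call, 24 gained one and 2 changed sign.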
